A study of Mus musculus with 8 samples.

Results

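The 8 genes described here are the 7 hemoglobin chain genes *Hba-a1*, *Hba-a2*, *Hba-x*, *Hbb-bs*, *Hbb-bt*, *Hbb-y* and *Hbb-bh1*, and *Alas2*, the red cell enzyme that starts heme synthesis. They were chosen by name from 53465 gene identifiers in the table. *Hba-x*, *Hbb-y* and *Hbb-bh1* form the primitive (embryonic) class of 3 globins. *Hba-a1*, *Hba-a2*, *Hbb-bs* and *Hbb-bt* form the definitive (adult) class of 4.

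RNA came from mouse heart ventricles at embryonic day 15.5 (E15.5), in 4 Nrg1GOF and 4 wild-type (WT) libraries. Nrg1GOF embryos carry an *Nrg1* transgene at Rosa26 that is switched on by an Nkx2.5-Cre driver, a line active in cardiac cells; the genotype label spells the driver Nkx5.5-Cre. Neuregulin-1 is a growth factor that signals from endocardium to cardiomyocytes, and the comparison asks how its overexpression alters the ventricle. The labels give no sex, strain or litter, and do not say which alleles the WT embryos carry. Neither the labels nor the methods used here say whether blood was rinsed from the chambers.

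Hemoglobin is a tetramer of alpha-type and beta-type chains, each holding a heme. The first red cells of the embryo arise in the yolk sac and use the embryonic chains, encoded by *Hba-x* for the alpha type and by *Hbb-y* and *Hbb-bh1* for the beta type. Red cells formed later in the fetal liver use the adult chains, and the change between the sets is known as globin switching. A ventricle yields globin RNA through the blood in its chambers and vessels. In bulk tissue, fewer red cells and less globin RNA per red cell cannot be told apart.

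The alpha-type genes lie in one cluster on chromosome 11, all on the plus strand of GRCm38, with the embryonic gene first: *Hba-x* at chr11:32276400-32278116, *Hba-a1* at chr11:32283511-32284465 and *Hba-a2* at chr11:32296489-32297298. The beta-type cluster on chromosome 7 reads from the minus strand, so that *Hbb-y* at chr7:103851749-103853216 comes first. It is followed by *Hbb-bh1* at chr7:103841637-103843164, *Hbb-bs* at chr7:103826534-103828096 and *Hbb-bt* at chr7:103812524-103813996. *Alas2* lies at chrX:150547375-150570638 on the plus strand and overlaps *Apex2* and *Mir3620* on the other strand; the strand setting of the counting is not given in the sources used here.

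Reads of 60 bases cannot always be assigned to one copy of an adult gene. The coding sequences of *Hba-a1* and *Hba-a2* matched at 428 of 429 bases and those of *Hbb-bs* and *Hbb-bt* at 443 of 444. The coding stretches below, from the GRCm38 transcripts, are shown because each holds the only coding base that separates the copies, given in capitals.
Hba-a1: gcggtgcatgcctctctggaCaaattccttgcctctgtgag
Hba-a2: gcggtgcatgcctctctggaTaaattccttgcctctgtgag
Hbb-bs: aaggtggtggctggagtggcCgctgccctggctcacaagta
Hbb-bt: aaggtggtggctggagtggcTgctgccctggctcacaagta
Counted from the first base of the start codon, the differences are C381T from *Hba-a1* to *Hba-a2* and C417T from *Hbb-bs* to *Hbb-bt*. Both fall at the 3rd position of a codon, and the translated chains of each pair had 0 differences.

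Of all 60-base windows of the longest annotated transcript, 221 of 640 were found in *Hba-a1* and no other gene and 76 of 495 in *Hba-a2* alone. For *Hba-a1*, 161 of the 221 began before the start codon, in an annotated leader that its partner lacks. That leader lies before the transcript start given by RefSeq, and transcripts that begin at the RefSeq start would lack these 161 windows. For the beta pair, 198 of 569 windows were found in *Hbb-bs* alone and 273 of 644 in *Hbb-bt* alone. Every window of *Hba-x*, *Hbb-y*, *Hbb-bh1* and *Alas2* was found in transcripts of no other annotated gene. The values of the 4 adult genes are therefore uncertain as single copies, and each pair is also given as a sum.

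Promoters matched in the RefSeq table (GRCm38.p6) for 7 of the 8 genes, with none for *Hbb-bh1*. The 120 bases before the RefSeq start are printed for an embryonic and an adult gene of each cluster, 5′ to 3′, to set the classes side by side. Whether these sequences bear on the levels given below was not tested. Capitals mark the letters CACCC as well as CCAAT and TATAA, searched on both strands.
Hba-x: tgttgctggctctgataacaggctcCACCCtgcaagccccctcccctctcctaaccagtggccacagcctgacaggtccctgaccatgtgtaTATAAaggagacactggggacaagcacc
Hba-a2: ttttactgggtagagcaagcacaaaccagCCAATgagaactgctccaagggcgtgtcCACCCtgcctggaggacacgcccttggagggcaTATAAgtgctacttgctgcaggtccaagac
Hbb-y: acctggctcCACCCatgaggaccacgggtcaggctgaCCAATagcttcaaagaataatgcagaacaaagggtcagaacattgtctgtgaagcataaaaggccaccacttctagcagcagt
Hbb-bs: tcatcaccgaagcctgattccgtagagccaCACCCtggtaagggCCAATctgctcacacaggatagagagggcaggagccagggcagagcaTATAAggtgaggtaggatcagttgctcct
They stand at chr11:32276480-32276599 for *Hba-x* and chr11:32296372-32296491 for *Hba-a2*, both on the plus strand. The windows of *Hbb-y* at chr7:103853208-103853327 and *Hbb-bs* at chr7:103827929-103828048 are on the minus strand.

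All of the adult genes held the 3 motifs in this window, which 0.69% of 32851 promoters did. *Hba-x* held CACCC and TATAA, and *Hbb-y* held CACCC and CCAAT. *Alas2* held CACCC on the minus strand at 3 places and neither of the others. Singly, CACCC was in 31.7%, CCAAT in 21.3% and TATAA in 11.8% of all promoters. A match is a run of letters only. The windows of *Hba-a1* and *Hba-a2* were 95.1% identical and those of *Hbb-bs* and *Hbb-bt* 72.7%.

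Libraries held 8038641 to 26786039 counts, and Nrg1GOF 4 was the shallowest. *Nrg1* was at 59.7 to 63.7 CPM (counts scaled to library size) in Nrg1GOF and 3.07 to 4.47 in WT, as the labels require. WT 1 and 2 stood apart from WT 3 and 4 in these genes, so values are given library by library. No label names a batch, and a difference of litter or dissection cannot be told apart from one between embryos. Endothelial and cardiomyocyte markers were high in every library, with summed ventricular markers at 36360 to 51320 CPM. Hepatocyte markers summed to 0.375 to 1.42 CPM, with *Fga* at 0 counts in all libraries, so fetal liver RNA was near the detection limit.

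Per length, the embryonic globins were far below the adult ones in every library. In CPM per kilobase of transcript (CPM per kb), the WT level was 5063 ± 2606 (SD, n = 4) for *Hbb-bs*, 3981 ± 1816 for *Hba-a1*, 2446 ± 1457 for *Hba-a2* and 1854 ± 984 for *Hbb-bt*. It was 75.9 ± 18.1 for *Hbb-y*, 47.1 ± 23.5 for *Alas2*, 21.2 ± 4.29 for *Hba-x* and 4.33 ± 0.391 for *Hbb-bh1*. This order was the same in 8 of 8 libraries, but it depends on the transcript length used, here that of the longest annotated transcript. Across libraries, neighbouring adult genes overlapped in CPM per kb, as did *Hbb-y* with *Alas2* and *Alas2* with *Hba-x*, while *Hbb-bh1* stayed below all others. In CPM without length, *Hbb-bt* was above *Hba-a2* in Nrg1GOF 1 (1084 against 953) and below it in WT 1 (1934 against 2035). The 7 globins together took 0.433% to 1.26% of all counts.

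**Figure D1:**
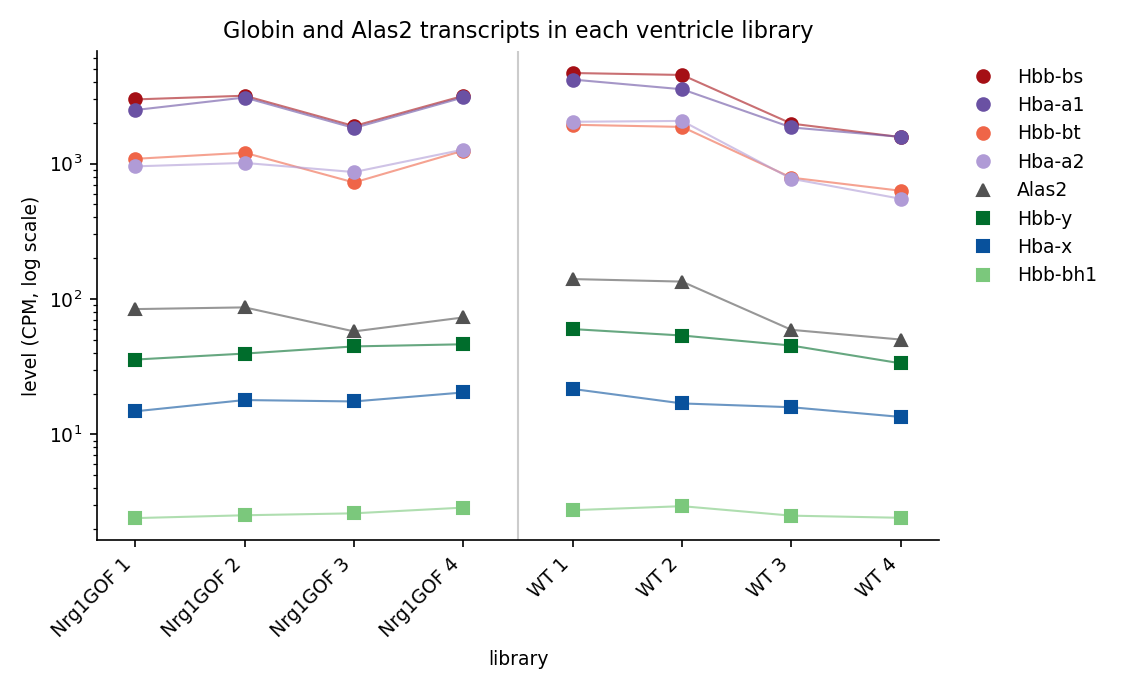
Level of each gene in each library in CPM on a log axis, with squares for primitive globins, circles for definitive globins and triangles for *Alas2*. The definitive globins sit near or above 549 CPM in every library and the primitive globins at or below 59.9 CPM, and the definitive globins are lower in WT 3 and 4 than in WT 1 and 2. Lines join the values of a gene within a group, whose libraries have no order.

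Among the primitive globins no gene differed between the genotypes beyond the spread of the libraries. *Hba-x*, the embryonic alpha-type (zeta) chain, was at 14.8, 17.9, 17.5 and 20.4 CPM in Nrg1GOF 1 to 4 and at 21.6, 16.9, 15.9 and 13.4 CPM in WT 1 to 4. The groups overlapped, with WT 1 highest and WT 4 lowest of all libraries. Its log2 fold change, Nrg1GOF over WT, was 0.04 (SE 0.15, 95% interval -0.28 to 0.37, edgeR adjusted p = 0.859).

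*Hbb-y*, the embryonic beta-type chain with the highest level here, was at 35.7, 39.5, 44.6 and 46.3 CPM in Nrg1GOF 1 to 4. In WT 1 to 4 it was at 59.9, 53.7, 45.3 and 33.4 CPM. All 4 Nrg1GOF libraries lay below WT 1 and 2 and above WT 4. The log2 fold change was -0.22 (SE 0.16, 95% interval -0.58 to 0.14, edgeR adjusted p = 0.360), the lowest adjusted p among the 8 genes.

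*Hbb-bh1*, the other embryonic beta-type chain, rested on 23 to 72 counts a library. It was at 2.40, 2.52, 2.61 and 2.88 CPM in Nrg1GOF 1 to 4 and at 2.75, 2.95, 2.51 and 2.42 CPM in WT 1 to 4. The libraries of both groups interleaved within a narrow range. The log2 fold change was -0.04 (SE 0.16, 95% interval -0.40 to 0.32, edgeR adjusted p = 0.897), so changes within that interval were not resolved.

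Among the definitive globins the spread of the WT libraries exceeded the difference between the genotypes. *Hba-a1* was at 2485, 3075, 1831 and 3081 CPM in Nrg1GOF 1 to 4 and at 4172, 3538, 1848 and 1574 CPM in WT 1 to 4. *Hba-a2*, the second adult alpha gene, was at 953, 1011, 865 and 1269 CPM in Nrg1GOF and at 2035, 2065, 772 and 549 CPM in WT. For both genes WT 1 and 2 were the highest of the 8 libraries and WT 4 the lowest, so that the WT group spanned the Nrg1GOF group. The log2 fold change was -0.09 (SE 0.30, 95% interval -0.76 to 0.59, edgeR adjusted p = 0.864) for *Hba-a1*. For *Hba-a2* it was -0.40 (SE 0.38, 95% interval -1.26 to 0.45, edgeR adjusted p = 0.479). Summed, the alpha pair was at 2696 to 4350 CPM in Nrg1GOF and 2123 to 6206 CPM in WT, with a log2 fold change of -0.18 (SE 0.32, edgeR adjusted p = 0.721).

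The adult beta genes followed the same course. *Hbb-bs* was at 2977, 3170, 1892 and 3163 CPM in Nrg1GOF 1 to 4 and at 4665, 4512, 1973 and 1568 CPM in WT 1 to 4. *Hbb-bt* was at 1084, 1202, 725 and 1246 CPM in Nrg1GOF and at 1934, 1865, 787 and 629 CPM in WT. WT 1 and 2 were again above every Nrg1GOF library, while WT 3 lay above and WT 4 below Nrg1GOF 3, the lowest of its group. Their log2 fold changes were -0.18 (SE 0.34, 95% interval -0.94 to 0.58, edgeR adjusted p = 0.738) and -0.29 (SE 0.35, 95% interval -1.07 to 0.49, edgeR adjusted p = 0.582). As a sum the beta pair was at 2617 to 4409 CPM in Nrg1GOF and 2197 to 6599 CPM in WT, with a log2 fold change of -0.21 (SE 0.34, edgeR adjusted p = 0.693).

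*Alas2*, the first enzyme of heme synthesis in red cells, was at 84.1, 86.6, 57.6 and 73.0 CPM in Nrg1GOF 1 to 4 and at 140, 134, 59.1 and 50.1 CPM in WT 1 to 4. Its libraries ranked almost as those of the definitive globins, with WT 1 and 2 at the top and Nrg1GOF 3 and WT 4 at the bottom. The log2 fold change was -0.35 (SE 0.32, 95% interval -1.06 to 0.37, edgeR adjusted p = 0.467).

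By edgeR's quasi-likelihood test, 0 of the 8 genes passed an adjusted p of 0.05, where 28.7% of all 15580 tested genes did. At an unadjusted p under 0.05 the count was also 0, and DESeq2 and edgeR's likelihood ratio test gave 0 as well. The median log2 fold change of the 8 genes was -0.20, beside -0.01 over all tested genes, and 7 of the 8 values were below 0. Nrg1GOF and WT overlapped in 8 of 8 genes, while 30.7% of all tested genes had groups that did not overlap. The intervals of the adult genes were wide, and they do not show that the genotypes were alike.

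WT 1 and 2 both exceeded WT 3 and 4 in 8 of 8 genes, as did 30.6% of all tested genes, but the size of the gap separated the classes. Mean WT 1 and 2 over WT 3 and 4 was 2.25-fold for *Hba-a1*, 3.15-fold for *Hba-a2*, 2.61-fold for *Hbb-bs*, 2.70-fold for *Hbb-bt* and 2.52-fold for *Alas2*. For the primitive globins it was 1.31-fold for *Hba-x*, 1.46-fold for *Hbb-y* and 1.15-fold for *Hbb-bh1*. The SD of log2 CPM among the WT libraries was 0.69 to 0.98 for the definitive globins and 0.78 for *Alas2*, above that of at least 95.4% of tested genes. For the primitive globins it was 0.12 to 0.37, above that of 48.0% to 83.4% of tested genes, where the median gene had 0.13. Within Nrg1GOF the definitive globins spread less, with SDs of 0.23 to 0.36, above those of 69.8% to 82.9% of tested genes. The median gene had 0.15 in that group. These contrasts among WT libraries were seen in the same values and carry no test.

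**Figure D2:**
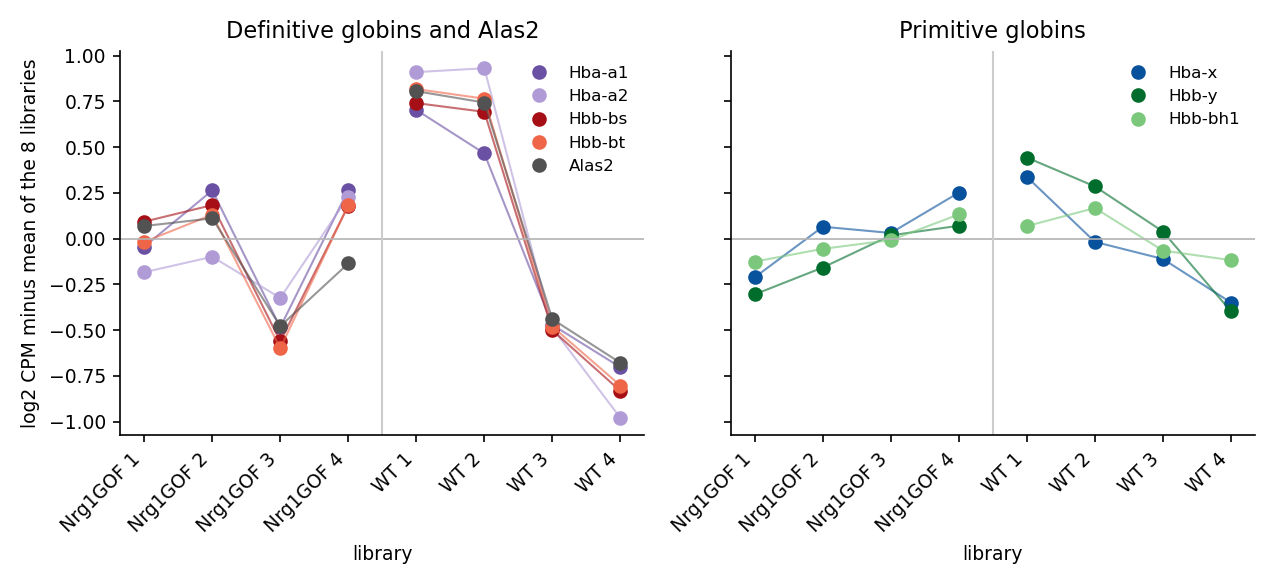
log2 CPM of each gene minus its mean over the 8 libraries, with definitive globins and *Alas2* on the left and primitive globins on the right. The left-hand genes move as one bundle that is high in WT 1 and 2 and low in WT 3, WT 4 and Nrg1GOF 3, and the right-hand genes keep a narrower range.

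For the summed definitive globins, the Nrg1GOF libraries fell between the WT libraries. The 8 libraries ranked WT 1, WT 2, Nrg1GOF 4, Nrg1GOF 2, Nrg1GOF 1, WT 3, Nrg1GOF 3 and WT 4, from 12810 down to 4320 CPM. All 4 Nrg1GOF libraries were below both WT 1 and WT 2 in 6 of the 8 genes, with *Hba-x* and *Hbb-bh1* as the exceptions, where 20.7% of all tested genes were. They were above both WT 3 and WT 4 in 1 of the 8, *Hba-a2*, where 25.9% of all tested genes were.

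The direction of the genotype difference therefore depended on which WT libraries were used. With WT 1 and 2 alone, 5 of the 8 genes were lower in Nrg1GOF at an edgeR adjusted p of 0.05. They were *Hbb-y* at -0.46, *Hba-a2* at -1.003, *Hbb-bs* at -0.71, *Hbb-bt* at -0.84 and *Alas2* at -0.87 on the log2 scale, with adjusted p from 0.00142 to 0.0253. With WT 3 and 4 alone, 3 of the 8 were higher, namely *Hba-a1* at 0.62, *Hba-a2* at 0.64 and *Hbb-bs* at 0.67, with adjusted p from 0.0256 to 0.0454. Of all tested genes, 18.6% were called with WT 1 and 2 and 27.7% with WT 3 and 4. The division was taken from these libraries' own values, so neither set of calls is evidence of a genotype effect. *Hba-x* and *Hbb-bh1* were called in neither.

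**Figure D3:**
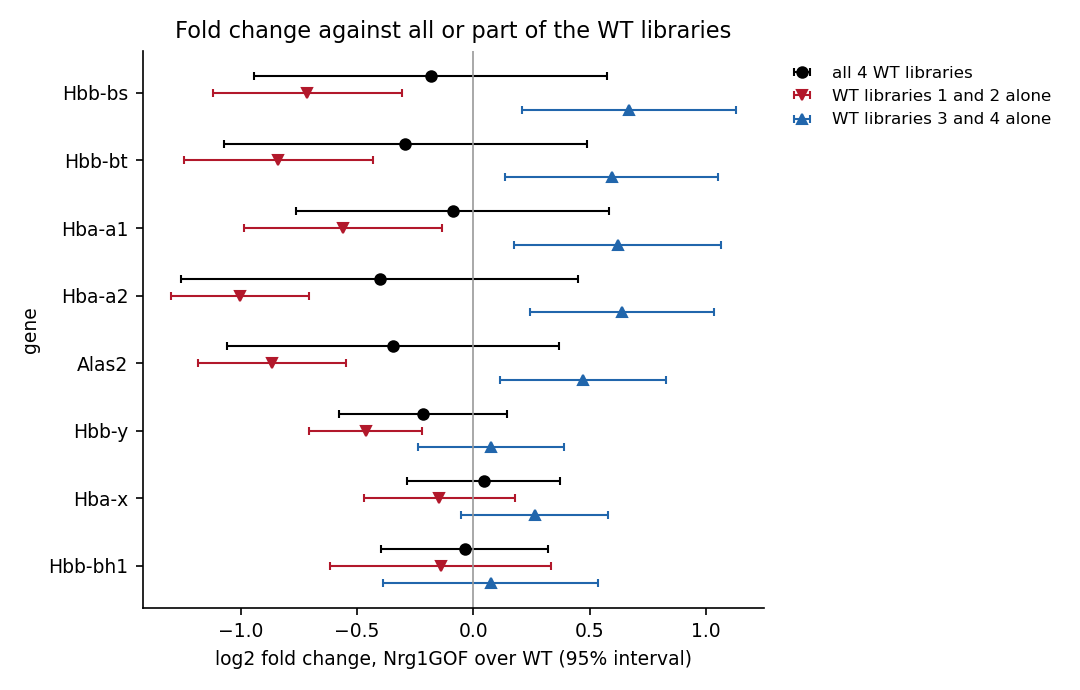
log2 fold change of each gene, Nrg1GOF over WT, with 95% intervals, against all 4 WT libraries (black), WT 1 and 2 alone (red) and WT 3 and 4 alone (blue). Red and blue points of the definitive globins and *Alas2* lie on opposite sides of 0, and black intervals include 0 for every gene.

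The primitive share of globins differed from library to library, and the genotypes overlapped in it. Primitive globins made up 0.677%, 0.680%, 1.16% and 0.758% of all globin transcripts per length in Nrg1GOF 1 to 4. The WT shares were 0.632%, 0.591%, 1.14% and 1.10%. The high shares were those of Nrg1GOF 3, WT 3 and WT 4, the libraries with the least definitive globin. Within the alpha type, *Hba-x* took 0.240% to 0.520%, and within the beta type, *Hbb-y* and *Hbb-bh1* together took 0.903% to 1.81%.

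The alpha and beta types stayed in proportion. The alpha-type to beta-type ratio per length was 0.835, 0.915, 1.02 and 0.976 in Nrg1GOF 1 to 4 and 0.941, 0.888, 0.936 and 0.945 in WT 1 to 4. It varied 1.22-fold over the 8 libraries, where the globin share of all counts varied 2.91-fold. *Alas2* kept a like proportion, with 8.34 to 11.2 counts per 1000 definitive globin counts in Nrg1GOF and 10.9 to 11.6 in WT.

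Within the adult pairs, *Hba-a1* took 62.6% to 70.7% of the alpha pair per length in Nrg1GOF and 57.6% to 69.4% in WT. *Hbb-bs* took 75.5%, 74.7%, 74.5% and 74.0% of the beta pair in Nrg1GOF 1 to 4 and 73.0%, 73.0%, 73.7% and 73.6% in WT 1 to 4. This was the only one of 9 measures of balance whose groups did not overlap, beside 30.7% of all tested genes. Its difference of 1.33 percentage points rests on the assignment of reads between near-identical copies and was not tested. The ratio of *Hbb-y* to *Hbb-bh1* was 14.4 to 16.6 in Nrg1GOF and 13.4 to 21.1 in WT.

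**Figure D4:**
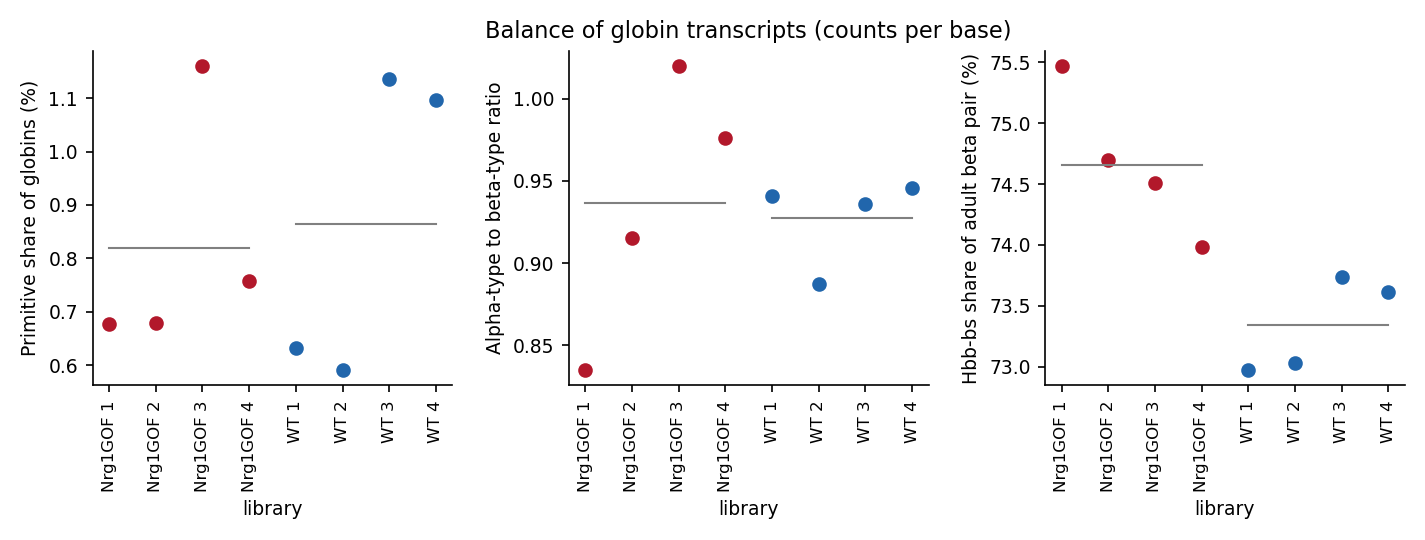
Primitive share of all globins, alpha-type to beta-type ratio and *Hbb-bs* share of the adult beta pair, all from counts per base, in each library (red, Nrg1GOF; blue, WT), with group means as grey lines and axes that do not start at 0. The primitive share is high in Nrg1GOF 3, WT 3 and WT 4, and the *Hbb-bs* share is the only measure plotted whose groups do not overlap.

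Red cell genes outside the globins were read from 2 lists, membrane and skeleton proteins and other red cell proteins. Of 15 tested membrane genes 3 rose and 2 fell, and of 9 other red cell genes 0 rose and 3 fell, beside 15.9% of all tested genes that rose and 12.8% that fell. These 8 calls became 5 without Nrg1GOF 2, Nrg1GOF 3 or WT 1 and 4 with the WT pairs each summed. With WT 1 and 2 alone there were 10 calls, 2 that rose and 8 that fell. With WT 3 and 4 alone there were 5, 3 that rose and 2 that fell. The erythroid anion exchanger *Slc4a1* was at 13.9 ± 1.38 CPM (SD, n = 4) in Nrg1GOF and 16.8 ± 6.58 in WT. It did not pass, with an edgeR adjusted p of 0.466. Its mean log2 CPM was higher in WT 1 and 2 than in WT 3 and 4 by 0.997, a split like that of the definitive globins.

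*Sptb*, a spectrin of the membrane skeleton, fell by 0.72 on the log2 scale in Nrg1GOF (SE 0.10, edgeR adjusted p = 5.79e-04). *Ank1*, the ankyrin that ties spectrin to the membrane, rose by 0.34 (SE 0.06, adjusted p = 0.00215). These genes are not all particular to red cells; *Sptb* and *Ank1* are also used in striated muscle. *Prdx2*, a peroxidase abundant in red cells, fell by 0.26 (SE 0.06, adjusted p = 0.0141). *Bpgm*, which makes the red cell regulator of oxygen affinity, was at 32.2 CPM in Nrg1GOF and 42.2 in WT and did not pass (adjusted p = 0.213).

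Of the 15 membrane genes, 7 were higher in both WT 1 and 2 than in WT 3 and 4, and 2 were lower. Of the 9 others 7 were higher and 1 was lower, beside 30.6% of all tested genes that were higher and 31.0% that were lower. Summed membrane genes were at 494, 489, 426 and 392 CPM in WT 1 to 4 and at 347 to 406 CPM in Nrg1GOF. Megakaryocyte markers, another blood lineage, summed to 16.2, 14.3, 12.9 and 10.6 CPM in WT 1 to 4, and 0 of 8 tested passed by edgeR, beside 28.7% of all tested genes. Granulocyte markers went the other way, at 1.796, 1.746, 5.62 and 3.36 CPM, with 0 of 5 passing by edgeR. In both lists the counts at an unadjusted p under 0.05, by DESeq2 and by edgeR's likelihood ratio test were also 0. Transcripts of 8000 bases or more were also higher in WT 1 and 2, by a median of 0.31 on the log2 scale over 871 genes, while those under 1000 bases, the globins' own class, differed by 0.01. Of 5 atrial markers, 3 were higher in both WT 1 and 2 than in WT 3 and 4 and 1 was lower. The atrial marker *Myl7* was at 175.5, 155.9, 88.9 and 106.0 CPM in WT 1 to 4. The part of blood content, of transcript length and of atrial tissue in the globin values was not tested.

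**Figure D5:**
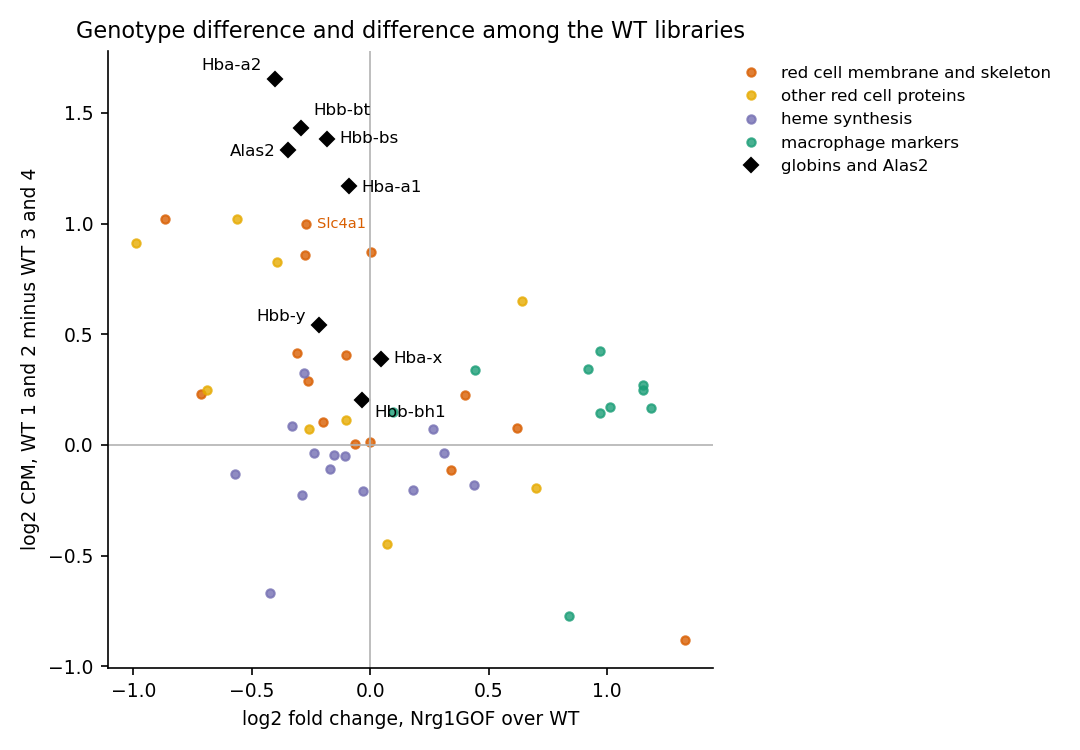
For each tested gene of 4 lists and for the 8 genes, the log2 fold change between the genotypes (x axis) against the difference in mean log2 CPM between WT 1 and 2 and WT 3 and 4 (y axis). Definitive globins and *Alas2* sit highest, with *Slc4a1* below them, and the macrophage markers spread to the right.

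Some transcription factors of red cell formation were scarce. *Gata1*, the lineage's central factor, had 2 to 17 counts a library and *Klf1*, an activator of adult beta globin, 2 to 12, too few to enter the test. Of 10 genes in this list 7 were tested and 3 rose, *Lmo2* by 0.70, *Lyl1* by 0.82 and *Tal1* by 0.40 on the log2 scale (edgeR adjusted p of 7.61e-05, 4.11e-04 and 0.0251), beside 15.9% of all tested genes that rose. The most abundant of the list did not pass, with log2 fold changes of -0.20 for the bridging cofactor *Ldb1* and 0.13 for the *Gata1* partner *Zfpm1* (edgeR adjusted p of 0.330 and 0.272). *Lmo2*, *Lyl1* and *Tal1* also act in endothelium. Of 10 endothelial markers 6 rose and 1, *Cldn5*, fell, beside 15.9% and 12.8% of all tested genes. *Pecam1*, *Cdh5* and *Kdr* did not pass, with log2 fold changes of 0.08, -0.04 and -0.04 (edgeR adjusted p of 0.295, 0.608 and 0.627). Endothelial markers summed to 1651 to 1747 CPM in Nrg1GOF and 1408 to 1458 CPM in WT. Whether endothelial RNA accounts for the rise was not tested.

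Of 11 regulators of globin switching 1 was called, beside 28.7% of all tested genes. It was *Bcl11a*, the repressor of embryonic and fetal globin genes in definitive red cells, named after its value was seen, which fell by 1.13 on the log2 scale (SE 0.07, edgeR adjusted p = 9.06e-06). Its mean level was 17.4 CPM in Nrg1GOF and 37.9 in WT. Its level among WT libraries differed by -0.18 between WT 1 and 2 and WT 3 and 4, against 1.17 to 1.65 for the definitive globins. In bulk tissue its cell of origin is not known. The embryonic globins, its targets, did not pass, as given above. The chromatin remodeller *Chd4* and the histone demethylase *Kdm1a*, corepressors at globin genes, had log2 fold changes of -0.09 and -0.06 (edgeR adjusted p of 0.398 and 0.371).

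Heme synthesis beyond *Alas2* moved in both directions. Of 14 enzymes and carriers 3 rose, *Alad*, *Cpox* and *Fam210b*, and 4 fell, *Alas1*, *Urod*, *Fech* and *Tmem14c*, beside 15.9% and 12.8% of all tested genes, with a median log2 fold change of -0.16. *Alas1*, the form of the first enzyme used in most tissues, fell by 0.57 (SE 0.06, edgeR adjusted p = 1.28e-04), from 112 CPM in WT to 75.8. *Fech*, which inserts iron into heme, fell by 0.28 (SE 0.09, edgeR adjusted p = 0.0484). The *Alas1* values of the WT libraries did not follow the globins, differing by -0.13 between WT 1 and 2 and WT 3 and 4.

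Of the other heme-binding globins 2 were tested and both fell, beside 12.8% of all tested genes. *Mb*, the muscle oxygen store myoglobin, fell by 1.69 on the log2 scale (SE 0.15, edgeR adjusted p = 5.94e-05), from 753 CPM in WT to 234. *Cygb*, a globin of fibroblasts and other cells, fell by 0.48 (SE 0.10, edgeR adjusted p = 0.0055). *Hbb-bh2*, a further gene of the beta cluster, had 0 counts in every library, which allows up to 0.115 to 0.375 CPM (3 counts of each library; counting error only). Summed ventricular cardiomyocyte markers were lower in Nrg1GOF, at 36360 to 45630 CPM against 49930 to 51320. Summed atrial cardiomyocyte markers were higher, at 1599 to 1764 CPM in Nrg1GOF and 1000 to 1114 CPM in WT. The part of either difference in the fall of *Mb* was not tested.

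Calls among genes of iron and heme handling are given beside the 15.9% of all tested genes that rose and the 12.8% that fell. Of 11 iron genes 2 rose, *Slc40a1* and *Trf*, and 1, *Steap3*, fell; the transferrin receptor *Tfrc*, through which red cell precursors take up iron, had a log2 fold change of -0.09 (SE 0.06, edgeR adjusted p = 0.297). Among 9 genes of heme and hemoglobin clearance 2 rose. *Hmox1*, the inducible enzyme that breaks down heme, rose by 1.86 (SE 0.09, edgeR adjusted p = 1.88e-06), from 10.8 CPM in WT to 39.4, and *Lrp1*, a receptor for heme-hemopexin, rose by 0.90 (SE 0.25, edgeR adjusted p = 0.0245). *Lrp1* also divided the WT libraries, at 123, 151, 64.9 and 65.0 CPM in WT 1 to 4, all below the 169 to 207 CPM of Nrg1GOF. Macrophages, which carry out much of this clearance, had 9 of 10 tested markers higher, and their sum was 129 to 144 CPM in Nrg1GOF and 68.9 to 83.4 CPM in WT. The part of macrophage RNA in the rise of *Hmox1* was not tested.

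Profiles most like the summed definitive globins, by root mean square distance of mean-centred log2 CPM over the 8 libraries among 13056 genes, were those of *Tent5c* (0.16), *Gm11868* (0.19), *Ahnak* (0.22), *BC002163* (0.23) and *Macf1* (0.23), where the median gene lay at 0.55. *Alas2* lay at 0.14. A near profile does not show that a gene's RNA came from red cells, and transcript length was not taken into account. *Tent5c* was at 11.5 to 19.2 CPM in Nrg1GOF and at 30.8, 27.2, 13.7 and 10.8 CPM in WT 1 to 4. Nearest to the summed primitive globins were *Gm7658* (0.10), *Sync* (0.11), *Bbc3* (0.12), *Gm8276* (0.12) and *Msln* (0.12), with the median gene at 0.29.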

How the data were processed

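The authors trimmed reads with cutadapt (version not given in the sources used here) and deposited RSEM 1.3.1 expected counts per Ensembl gene on GRCm38, from 60-base single reads of poly(A) RNA (100 ng of total RNA, directional kit, CASAVA v1.8, 1 ventricle sample per library). The aligner is not given in the sources used here. Expected counts were rounded; 8.42% to 13.2% of all values in a library were not exactly whole (no tolerance). Symbols matched 53274 of 53465 identifiers; *Ahsp* was not analysed here.

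edgeR 4.0.16 (R 4.3.3; filterByExpr, TMM, quasi-likelihood, Benjamini-Hochberg) was fitted to all 15580 genes passing the filter, including all 8 genes, with genotype as the only term. CPM used TMM library sizes, and CPM per kb the longest annotated transcript. DESeq2 1.42.0, other scalings and filters and subsets of libraries were alternatives. The test was tried on simulated data. Floors (3 counts) cover counting error only. Nothing says that embryos came from separate litters, so p-values and the 95% intervals of fold changes measure the spread between these samples.

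Genes and lists were chosen with earlier results of these data known. Named genes are the 5 highest in each list, fixed additions (*Gata1*, *Klf1*, *Slc4a1*, *Ahsp*, *Hbb-bh2*, *Hmox1*, *Nrg1*) and the 5 nearest profiles; other list genes are named after their values were seen. Some list genes are counted but not reported singly here.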

Additional observations from a re-analysis of the deposited data

Results flagged for a closer look

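Among 226 groups of 4 values, 8 held a library set apart from the others by Dixon's ratio at the 95% level, where about 11.3 would be flagged at 1 in 20. *Hbb-bs* was 1892 CPM in Nrg1GOF 3, beside 2977 to 3170 in the other Nrg1GOF libraries. The primitive share of globins was 1.16% in the same library, beside 0.677% to 0.758%. *Bpgm* was 25.8 CPM there, beside 34.0 to 34.8. The alpha-type to beta-type ratio was 0.888 in WT 2, beside 0.936 to 0.945. *Tal1* was 11.6 CPM in Nrg1GOF 4, beside 14.6 to 15.1, and the total of that library was 8039000 counts to 4 digits, beside at least 20578081. *Ireb2* was 173 CPM in Nrg1GOF 1, beside 147 to 151. *S100a8* was 0.930 CPM in WT 3, beside 0.306 to 0.328.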

How the results depend on the processing

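Alternatives gave 343 further values, of which 300 stayed within the spread or led to the same call in the same direction. The count of the 8 genes called was 0 under every alternative other than WT 1 and 2 alone (5) and WT 3 and 4 alone (3). With WT 1 and 2 alone, log2 fold changes were -0.15 for *Hba-x*, -0.69 for the alpha pair sum and -0.74 for the beta pair sum. With WT 3 and 4 alone they were 0.076 for *Hbb-y*, 0.076 for *Hbb-bh1*, 0.62 for *Hba-a1*, 0.64 for *Hba-a2*, 0.67 for *Hbb-bs*, 0.59 for *Hbb-bt*, 0.47 for *Alas2*, 0.63 for the alpha sum and 0.65 for the beta sum. A red cell membrane covariate turned *Hba-a1* to 0.071, *Hbb-bs* to 0.025 and the alpha sum to 0.0053, and library total scaling turned *Hbb-bh1* to 0.0083. Library total scaling also moved the share of higher calls from 55.4% to 65.4%. The cause was not tested. Red cell list genes called went from 8 to 10 with WT 1 and 2 alone, to 5 with WT 3 and 4 alone and to 4 with WT 1 and 2 and WT 3 and 4 each summed to 1 library.

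Leaving out 1 library at a time left 0 of the 8 genes called. The log2 fold change ranged from -0.053 to 0.19 for *Hba-x*, -0.36 to -0.093 for *Hbb-y*, -0.080 to 0.013 for *Hbb-bh1*, -0.28 to 0.17 for *Hba-a1*, -0.67 to -0.13 for *Hba-a2*, -0.41 to 0.061 for *Hbb-bs*, -0.52 to -0.040 for *Hbb-bt* and -0.56 to -0.10 for *Alas2*. The alpha sum ranged from -0.40 to 0.078 and the beta sum from -0.44 to 0.032. Differences in the alpha-type to beta-type ratio ranged from -0.0186 to 0.0433, and in *Alas2* per 1000 definitive counts from -1.38 to -0.423. Red cell list calls ranged from 5 to 9, with 5 without Nrg1GOF 2, Nrg1GOF 3 or WT 1.

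Libraries of the same number correlated at 0.129, 0.0492, 0.199 and 0.0668 in their deviations from group means. Not every library correlated best with its own number. Nrg1GOF 1 and 2 correlated positively with WT 1 and 2, at 0.0492 to 0.187. Their correlations with WT 3 and 4 were negative, at -0.199 to -0.0731. Nrg1GOF 3 did the reverse, at -0.263 and -0.0802 with WT 1 and 2 and 0.199 and 0.164 with WT 3 and 4. Nrg1GOF 4 followed neither course, at -0.113 to 0.0668. Whether libraries of the same number share a litter or batch was not tested. With the replicate block, 4524 genes were called in place of 4467, 0 of the 8 genes were called, and log2 fold changes ran from -0.24 for *Alas2* to 0.051 for *Hba-x*.

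No filter on low counts called 3934 of 27764 genes. Calls over all genes fell to 2999 with WT 1 and 2 alone and 2464 with the WT pairs summed. *Hbb-bh1* had the fewest counts of the 8 genes, 23 in the shallowest library, and *Gata1* and *Klf1* could not be tested.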
